A study of Homo sapiens with 8 samples.

Results

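The regions described are the H3K4me1 peaks of chromosome 13 in MDA-MB-231 cells, an established human line of triple-negative breast cancer, taken from ARID1A knockout cells and from control cells of the same line. All rows on chromosome 13 were taken from both deposited peak lists and placed in bins of 5 Mb counted from the first base. They came to 4888 of 156603 peaks, 2506 of 73603 in the knockout list and 2382 of 83000 in the control list. The chromosome was singled out for its peak number, covered bases, pileup and implied background in these lists, so those values are descriptions and no test was made on them. Each genotype had 2 immunoprecipitated and 2 input samples, 8 samples in 4 groups of 2, and the deposit gives 1 list per genotype, so no difference can be set against replicate error. The labels do not state how ARID1A was removed, whether the knockout cells were 1 clone or what the control cells carried. The lists hold no measure of ARID1A expression, so the genotype labels were not checked.

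A single methyl group on lysine 4 of histone H3 is placed largely by the KMT2C and KMT2D methyltransferases. The mark is known for lying over enhancers, poised and active, and on the flanks of active promoters, whose centres carry the trimethylated form instead. ARID1A is a DNA-binding subunit of the canonical BAF form of the SWI/SNF complex, which helps to keep enhancers open. Chromosome 13 is an acrocentric chromosome with long stretches poor in genes, and carries the retinoblastoma gene RB1, the type IV collagen genes COL4A1 and COL4A2 and the glypican genes GPC5 and GPC6.

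The sequences that follow are shown because each is a known element of chromosome 13 that lay under a peak of 1 list only, or under peaks of both lists that differed in size. Of 299 coding promoter windows of 300 bases on the chromosome, 3 belonged to a gene named for its covered bases and lay wholly under a peak in 1 list only. The GPC5 window (chr13:91398371-91398670, plus strand) and the HS6ST3 window (chr13:96089857-96090156, plus strand) were covered in the knockout list only, and the LMO7 window (chr13:75620184-75620483, plus strand) in the control list only. Sequences are from RefSeq, GRCh38.p14, written 5′ to 3′. Capitals mark matches on either strand to TGANTCA (the AP-1 motif), TATAAA (the TATA box) or CATTCC (the TEAD motif), which do not overlap here.
GPC5: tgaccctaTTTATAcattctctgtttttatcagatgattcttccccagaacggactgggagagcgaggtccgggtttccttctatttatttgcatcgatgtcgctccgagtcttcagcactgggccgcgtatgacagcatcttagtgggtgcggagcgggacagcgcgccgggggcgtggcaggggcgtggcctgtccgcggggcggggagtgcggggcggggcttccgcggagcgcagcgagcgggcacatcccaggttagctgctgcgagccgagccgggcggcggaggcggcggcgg
HS6ST3: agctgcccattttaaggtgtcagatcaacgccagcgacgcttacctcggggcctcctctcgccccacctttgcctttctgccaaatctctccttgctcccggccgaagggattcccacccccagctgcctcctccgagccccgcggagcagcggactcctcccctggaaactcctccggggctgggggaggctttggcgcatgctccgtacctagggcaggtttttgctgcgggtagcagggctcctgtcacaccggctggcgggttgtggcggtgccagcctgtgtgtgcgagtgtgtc
LMO7: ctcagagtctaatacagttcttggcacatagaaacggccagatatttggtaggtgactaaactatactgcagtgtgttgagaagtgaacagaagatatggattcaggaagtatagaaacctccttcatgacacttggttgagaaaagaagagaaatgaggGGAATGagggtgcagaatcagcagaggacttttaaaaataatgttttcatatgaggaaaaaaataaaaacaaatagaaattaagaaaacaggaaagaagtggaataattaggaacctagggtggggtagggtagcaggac
The GPC5 window held 33 CG pairs and 1 TATAAA match, on the minus strand, and the HS6ST3 window held 19 CG pairs and none of the 3 motifs. The LMO7 window held 1 CG pair and 1 CATTCC match, on the minus strand. Among all 35116 promoter windows of the table, TATAAA was found in 11.5%, CATTCC in 14.0% and TGANTCA in 7.71%, so a match is no rare event. A match is a description of the letters and not a site.

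The microRNA cluster MIR17HG and the pair MIR15A and MIR16-1 also lie on chromosome 13, and MIR4500 was the microRNA record covered in the knockout list alone. Mature sequences are from the same RefSeq table, with the seed (bases 2 to 8), the part that pairs with a target, in capitals. The first 6, 1 arm of each hairpin of MIR17HG on the plus strand, fall into 4 seeds, of which 2 are shared by a pair of members. The remaining 3 lie on the minus strand, and miR-15a-5p and miR-16-5p share a seed.
miR-17-5p: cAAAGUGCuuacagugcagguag
miR-20a-5p: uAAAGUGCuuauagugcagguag
miR-18a-5p: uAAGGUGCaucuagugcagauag
miR-19a-3p: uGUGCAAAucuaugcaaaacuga
miR-19b-3p: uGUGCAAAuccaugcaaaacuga
miR-92a-3p: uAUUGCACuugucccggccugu
miR-15a-5p: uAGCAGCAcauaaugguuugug
miR-16-5p: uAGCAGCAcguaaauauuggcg
miR-4500: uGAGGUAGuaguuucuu
The seed of miR-4500 is that of the let-7 family.

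H3K4me1 peaks covered more of chromosome 13 in the knockout list than in the control list, against the direction of most of the genome. Covered bases came to 5.213 Mb in knockout cells and 4.553 Mb in control cells, a ratio of 1.145. Among the other 22 chromosomes examined (1 to 22 and X) this ratio ran between 0.8372 on X and 1.059 on chromosome 21, with a median of 0.9523. Peak number differed less, at 2506 in knockout cells and 2382 in control cells, a ratio of 1.052 with an exact interval of 0.9943 to 1.113. All intervals given are exact Clopper-Pearson intervals at 95%, which cover counting error alone and treat neighbouring peaks as independent, which they are not. The knockout peaks were wider, with a median of 1432 bases against 1291 bases in the control list. The corresponding medians on the other chromosomes were 1592 bases for knockout peaks and 1389 for control peaks, so a wider knockout peak was not particular to chromosome 13.

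The peaks of chromosome 13 were also taller in the knockout list, and so was the input behind them. Pileup is the height of stacked fragments that the authors' peak caller reported for a peak, and its median was 17.1 in knockout cells and 11.5 in control cells. That ratio of 1.484 compares with 1.063 to 1.284 on the other chromosomes. The implied background is the local input level that would give the deposited fold enrichment, (pileup + 1) / fold − 1, and its median was 5.30 in knockout cells and 3.11 in control cells. Its ratio of 1.706 was 1.386 times the ratio of 1.231 found over the other chromosomes, whose own values relative to that ratio ran between 0.8237 and 1.104. Enrichment over that input did not follow, with a median fold of 2.85 in knockout cells and 2.95 in control cells, a ratio of 0.9661 and the lowest of the 23 chromosomes. The lists give no DNA copy number, and what set the implied background was not tested.

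Peaks that overlapped one to one between the lists, which leaves out those held by 1 list, were compared as pairs. There were 1545 such pairs on chromosome 13 and 48850 on the other chromosomes. Pileup was higher in the knockout peak in 1464 of the 1545 pairs (94.76%), with a median ratio of 1.56 against 1.16 elsewhere. Implied background was higher in the knockout peak in 1502 pairs (97.22%), with a median ratio of 1.74 against 1.22 elsewhere, and between 1.03 on chromosome 3 and 1.37 on chromosome 1 among single chromosomes. The fold was higher in the knockout peak in only 691 pairs (44.72%), with a median ratio of 0.979 against 0.974 elsewhere. Pairs of chromosome 13 therefore had higher ratios of pileup and background than pairs elsewhere, and a like ratio of fold. The −log10 q of a pair, which grows with pileup at equal fold, had a median ratio of 1.38 on chromosome 13 and 1.09 elsewhere.

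**Figure D1:**
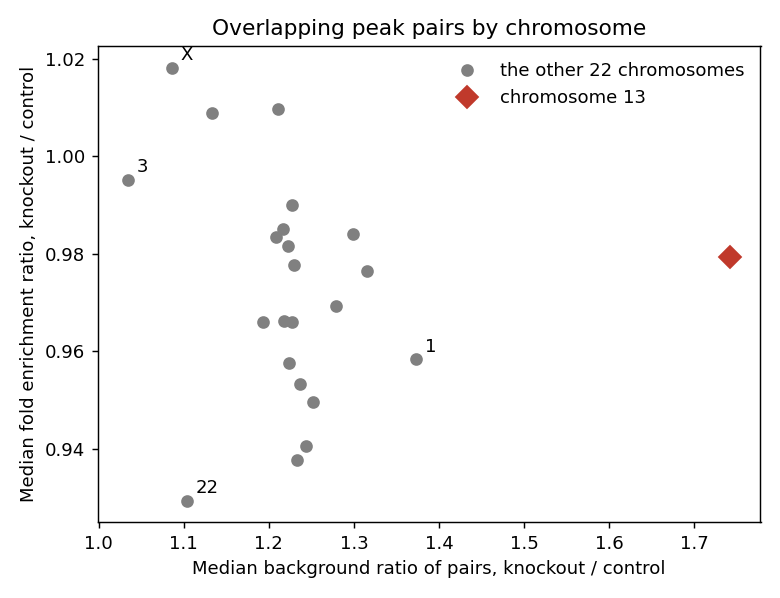
Each point is a chromosome, placed by the median ratio of implied background (horizontal axis) and of fold enrichment (vertical axis) over its one-to-one peak pairs, knockout over control. Chromosome 13 lies far to the right, at 1.74 where the next is chromosome 1 at 1.37, and its fold ratio of 0.979 lies amid those of the other chromosomes.

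Strong peaks differed more in number than all peaks. Those with a −log10 q of at least 5 numbered 856 in the knockout list (34.16% of its chromosome 13 peaks) and 467 in the control list (19.61%), a ratio of 1.833 with an interval of 1.636 to 2.056. Over all chromosomes such peaks made up 37.5% of the knockout list and 28.8% of the control list, and over the chromosomes other than 13 the ratio of their numbers was 1.141 (1.121 to 1.161). Every one of the 20 bins with peaks held more of them in the knockout list, where 71.7% of all bins of the genome did. Peaks with a fold of at least 4 numbered 301 in the knockout list and 322 in the control one, a ratio of 0.9348 (0.7962 to 1.097), against 0.8766 (0.8557 to 0.8979) on the other chromosomes. A q value depends on depth and input as well as on enrichment, so 1 cutoff may be stricter in one list than in the other.

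Along the chromosome the knockout peaks ran between 18276898 and 114319458 and the control peaks between 19358801 and 114334801. The first 15 Mb, 3 bins, held none, and 2 coding gene records lie there. Of the 20 bins with peaks, 16 were covered more in the knockout list, where 40.9% of all such bins of the genome were, and 14 had more peaks in the knockout list, where 20.4% did. The bins were chosen on these values, so nothing is read from that difference. Median pileup was higher in the knockout list in 20 of 20 bins, where it was in 93.4% of all bins with peaks in both lists, and median fold in 5, where it was in 61.1%. The bins were not alike, since the ratio of covered bases ran between 0.6838 and 1.89 with a median of 1.169.

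**Figure D2:**
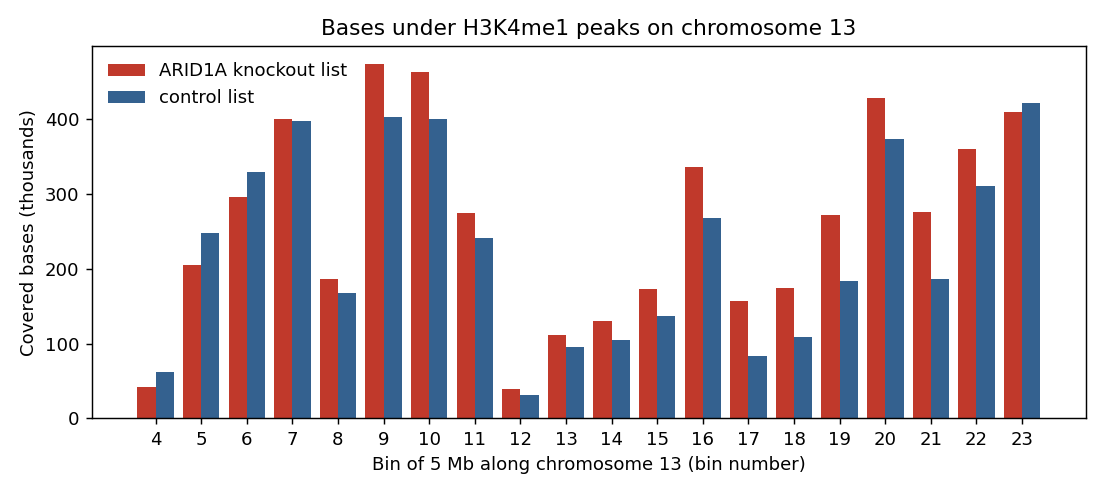
Bases covered by H3K4me1 peaks in each 5 Mb bin of chromosome 13 that holds peaks, with the knockout list left of the control list and bins numbered along the chromosome, so that bin 4 starts at 15 Mb. The knockout bar is the higher in 16 of 20 bins, and the control bar in bins 4, 5, 6 and 23, which start at 15, 20, 25 and 110 Mb.

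The end next to the centromere went the other way. Between 15 and 25 Mb, 128 knockout peaks covered 247069 bases and 166 control peaks covered 309463 bases, a ratio of 0.7984. The implied background there, relative to the other chromosomes, was 1.003, so these 10 Mb did not share the excess of the rest of the chromosome. Of the knockout peaks there 18.75% (12.4 to 26.6) had no control overlap, where 21.3% of all knockout peaks had none. Of the control peaks 36.14% (28.84 to 43.95) had no knockout overlap, where 28.2% of all control peaks had none. LATS2, FGF9 and TNFRSF19 lie in this stretch. The stretches given here were drawn after the bins were seen.

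The background shifted within the bin starting at 25 Mb. In steps of 1 Mb, an alternative added after seeing the data, the relative background was 1.042 between 25 and 26 Mb and 1.533 between 26 and 27 Mb. The knockout median was 3.85 in the earlier step and 5.23 in the next one, while the control median was lower in the next one, at 2.77. From 25 to 105 Mb the relative background was 1.425, and 2061 knockout peaks covered 4196067 bases against 3510795 bases under 1903 control peaks, a ratio of 1.195. Towards the far end the excess was smaller again, with a relative background of 1.465 between 102 and 103 Mb and 1.159 between 103 and 104 Mb. Over the last stretch, 105 to 115 Mb, it was 1.238, with medians of 6.92 in knockout cells and 4.54 in control cells. Covered bases in that stretch were 770354 in knockout cells and 732271 in control cells, a ratio of 1.052.

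**Figure D3:**
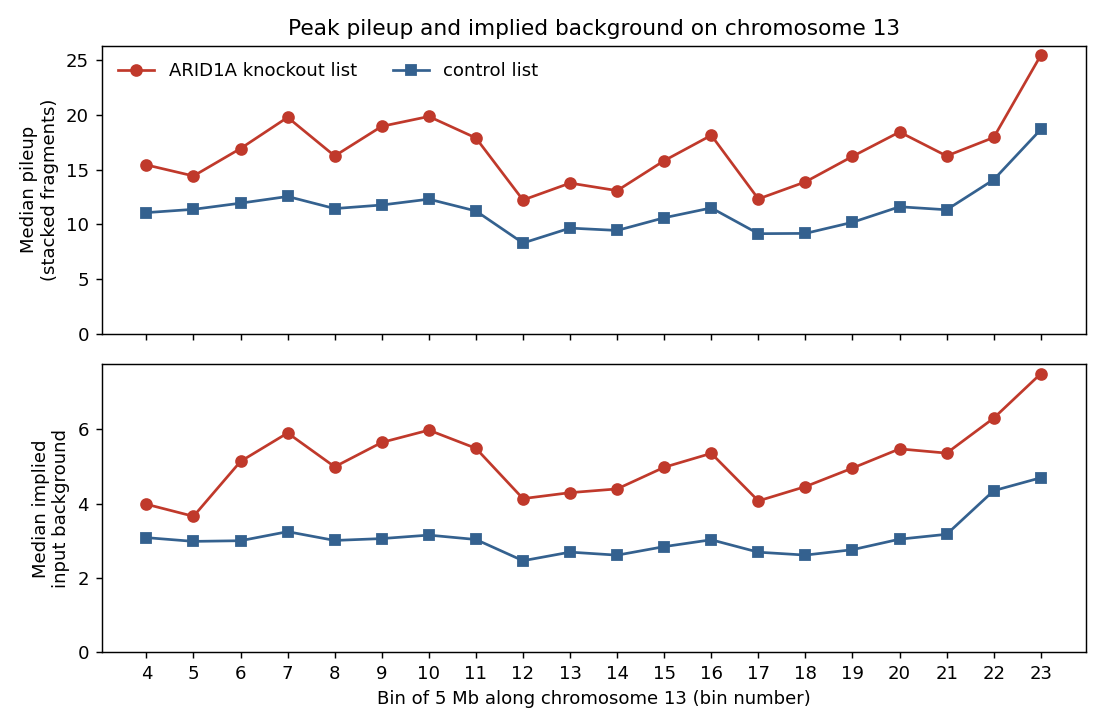
Median pileup (upper panel, stacked fragments) and median implied input background (lower panel) per 5 Mb bin, numbered along chromosome 13, in the knockout list and the control list. The knockout medians are above the control medians in all 20 bins of the upper panel, and the background gap is small in bin 4 (knockout 3.98, control 3.09) and bin 5 (knockout 3.66, control 2.98) and wide in bin 7 (knockout 5.90, control 3.25).

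Pairs gave the same course along the chromosome. The median ratio of background over pairs was 1.22 in the bin starting at 15 Mb and 1.25 in the next, about the 1.22 of the other chromosomes, and between 1.55 and 1.89 in all later bins. The ratio of pileup was 1.24 and 1.17 in those first bins and between 1.40 and 1.79 afterwards. The ratio of fold stayed between 0.923 and 1.13 in all 20 bins. The bin starting at 55 Mb, where the highest background and fold ratios lie, rests on 8 pairs only.

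**Figure D4:**
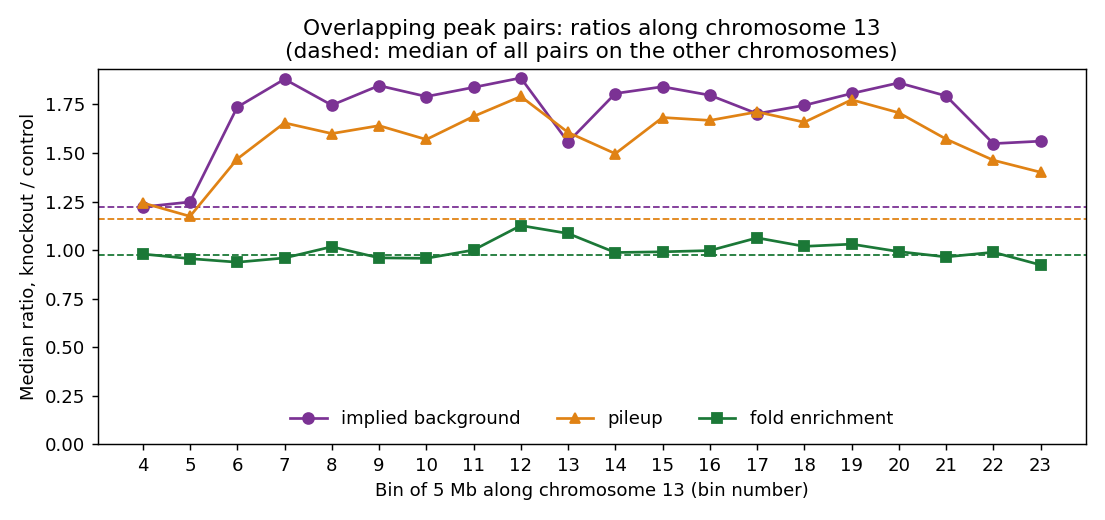
Median ratios, knockout over control, of implied background, pileup and fold enrichment over one-to-one peak pairs in each 5 Mb bin, numbered along chromosome 13, with dashed lines at the medians of all pairs on the other chromosomes (1.22, 1.16 and 0.974). Background and pileup lie near their dashed lines in bins 4 and 5 and above them from bin 6 on, while fold stays near its own.

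Of the stretches given, the ratio of covered bases was highest between 80 and 95 Mb, a stretch poor in genes with 12 coding records, among them SLITRK5 and SLITRK6, neuronal membrane proteins, and SPRY2, an inhibitor of receptor tyrosine kinase signalling. There 369 knockout peaks covered 604032 bases and 281 control peaks covered 376150 bases, a ratio of 1.606 for bases and of 1.313 (1.121 to 1.539) for peaks. Of the knockout peaks in this stretch 47.97% had no control overlap, and of the control peaks 28.47% had no knockout overlap. Over all chromosomes these shares were 21.3% and 28.2%. The bin starting at 80 Mb was the most unequal, with 110 knockout peaks over 157110 bases, 68 control peaks over 83135 bases, and 61.82% of the knockout peaks (52.07 to 70.92) without a control overlap. The 39 pairs of this bin had a median width ratio of 1.56, so shared peaks were also wider in the knockout list there. By medians over all its peaks, the relative background of this bin was 1.229, the lowest of the 16 bins between 25 and 105 Mb. Over its pairs the ratio of background was 1.70, above the 1.56 of the bin starting at 60 Mb, so its rank depended on the measure. What set its covered bases was not tested.

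On chromosome 13 the lists also differed in how many peaks lay at the lowest implied background of their list. That lowest value was 2.60 in the knockout list and 2.40 in the control list. There 17 of 2506 knockout peaks (0.678%) lay within 0.1 of that lowest value, against 361 of 2382 control peaks (15.2%). These shares were counted on chromosome 13 alone, so they cannot be called particular to it. In the control list the share was 36.76% in the bin starting at 80 Mb and 37.08% in the next one, and 0.6173% in the bin starting at 110 Mb. Leaving out the peaks near the lowest value in both lists gave a relative background of 1.345 for the chromosome, in place of 1.386.

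Both lists left long gaps without peaks. The longest in the control list was 3.141 Mb (chr13:53191640-56332773), within which the knockout list had peaks. The longest in the knockout list was 1.305 Mb (chr13:18281385-19586467), at the centromeric end, followed by 1.256 Mb (chr13:56238500-57494721).

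Compared with bins of the other chromosomes that hold at least 40 peaks, chromosome 13 had a larger share of bins with a high background. A relative background above 1.2 was found in 16 of 19 bins on chromosome 13 and in 49 of 551 bins elsewhere, on 7 chromosomes. Of those 49 bins 35 were covered more in the knockout list, with a median ratio of 1.064 and a range of 0.8295 to 3.761. Of the 502 other bins elsewhere 183 were, with a median ratio of 0.9338. Gene density went with the ratio too. In bins with fewer than 10 coding genes, the median ratio of covered bases was 1.264 over 7 bins of chromosome 13 and 1.077 over 49 bins elsewhere. In bins with 10 or more, it was 1.141 over 12 bins of chromosome 13 and 0.9408 over 502 bins elsewhere. These thresholds were chosen after the data were seen.

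Peaks held by 1 list only were weak and narrow. On chromosome 13, 804 knockout peaks (32.08%, 30.26 to 33.95) overlapped no control peak, where 21.3% of all knockout peaks did not, and 617 control peaks (25.9%, 24.15 to 27.71) overlapped no knockout peak, where 28.2% of all control peaks did not. Both lists shared 3259145 of the 6506874 bases covered in either (50.09%), which was 62.51% of the knockout bases and 71.59% of the control bases. The single knockout peaks had a median width of 870.5 bases and a median −log10 q of 1.92, against 1795 bases and 4.64 for knockout peaks that overlapped 1 control peak. The single control peaks had medians of 709 bases and 1.64, against 1542 bases and 3.25 for control peaks that overlapped 1 knockout peak. A further 94 knockout peaks (3.751%) and 31 control peaks (1.301%) overlapped several peaks of the other list.

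The knockout peaks of chromosome 13 lay far from genes more often than its control peaks did. A midpoint more than 50000 bases from any coding gene record was found for 33.88% of knockout peaks (32.03 to 35.77) and 29.72% of control peaks (27.89 to 31.6), against 18.4% of knockout peaks and 17.87% of control peaks on the other chromosomes. Among knockout peaks without control overlap the share was 45.02% (41.55 to 48.54), against 28.61% of those with one. Among control peaks without knockout overlap it was 32.9% (29.2 to 36.76), against 28.61% of those with one. Within 1000 bases of a gene end lay 3.871% of knockout peaks and 3.484% of control peaks, against 8.25% of knockout peaks and 7.47% of control peaks elsewhere. On the other chromosomes single knockout peaks were also the more distant, with 29.67% against 15.41% of shared ones, and single control peaks with 24.32% against 15.34%, so this order was not particular to chromosome 13.

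Promoter windows were more often under a knockout peak than under a control peak, on chromosome 13 as elsewhere. Of 299 coding promoter windows, 47 (15.72%, 11.78 to 20.35) touched a knockout peak only, 8 (2.676%, 1.162 to 5.204) a control peak only, 27 both and 217 neither. On the other chromosomes 13.39% touched a knockout peak only and 4.203% a control peak only, and both shares lie inside the chromosome 13 intervals. Chromosome 8 had no promoter windows, so it is not among the other chromosomes here. The median number of CG pairs was 27 in the windows touched in the knockout list only, 7.5 in the 8 touched in the control list only, 14 in those touched in both and 25 in those touched in neither. The medians on the other chromosomes were 25 for knockout only, 20 for control only, 20 for both and 21 for neither. Of the printed windows, GPC5, with 33 pairs, was above the median of its class, and HS6ST3, with 19, and LMO7, with 1, were below the medians of theirs. The GPC5 window lay under a knockout peak at chr13:91397889-91399634 with a pileup of 17.42 and a −log10 q of 5.21. The HS6ST3 window lay under a knockout peak at chr13:96089182-96091222 with a pileup of 15.70 and a −log10 q of 3.03, and the LMO7 window under a control peak at chr13:75619912-75621580 with a pileup of 8.81 and a −log10 q of 1.99.

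Covered bases were counted for 338 coding genes, over each RefSeq record with 5000 bases on either side, and a gene was called higher or lower in the knockout list at a difference of at least 1000 bases. Of these, 111 (32.8%) were higher in the knockout list, where 20.2% of all genes were, and 82 (24.3%) were lower, where 30.0% of all genes were. Another 145 differed by less, 39 of them with no peak in either list, and the median difference was 12 bases. Just inside and outside the upper limit lay ING1 at 1036 and DZIP1 at 992 bases, and just inside the lower limit lay EBPL at −1004 bases. Long genes were called more often both ways, on chromosome 13 as elsewhere, though for lower genes the shares on chromosome 13 lay close together. Among the 40 genes of at least 200000 bases 17 (42.5%) were higher and 11 (27.5%) lower in the knockout list. Among the 298 shorter genes 94 (31.5%) were higher and 71 (23.8%) lower. On the other chromosomes 37.2% of such long genes were higher and 44.6% lower, and 18.7% of shorter genes were higher and 29.0% lower.

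Among single genes, GPC6, with a record of 1191492 bases, had the greatest excess in covered bases. GPC6 (chr13:93216529-94408020), a glypican that holds heparan sulphate chains at the cell surface, had 115966 covered bases under 52 peaks in the knockout list and 74334 bases under 48 peaks in the control list. Its neighbour GPC5 (chr13:91398621-92867237), also a glypican, had 67987 bases under 46 knockout peaks and 49985 bases under 40 control peaks. HS6ST3, an enzyme that adds sulphate groups to heparan sulphate, had 29062 bases in knockout cells and 11385 in control cells. All 3 belong to the heparan sulphate system, a grouping chosen after their values were seen. The ratio of covered bases was 1.56 at GPC6 and 1.36 at GPC5, where the whole bin that holds them had 1.484. At HS6ST3 it was 2.553, where its bin had 1.146. ITGBL1 (chr13:101452675-101720856), a secreted protein related to integrin beta chains, had 57608 bases under 20 knockout peaks and 22521 bases under 12 control peaks. One of its knockout peaks, chr13:101569745-101572534 with a pileup of 27.28 and a −log10 q of 9.898, lay 39791 bases from the nearest control peak. FNDC3A, a protein with fibronectin type III domains, had 50347 bases in knockout cells and 21107 in control cells.

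The other excess genes had mixed roles. TBC1D4, a Rab GTPase-activating protein of insulin-regulated glucose uptake, had 41597 covered bases in knockout cells and 25795 in control cells. DNAJC3, a co-chaperone of the endoplasmic reticulum, had 17937 in knockout and 8269 in control, and LMO7, a LIM-domain protein of cell junctions, had 44350 in knockout and 35683 in control. NALF1, an auxiliary protein of the NALCN sodium leak channel, had 31553 bases in knockout cells and 13849 in control cells. Excess was also found for the transcription factor genes TSC22D1 (31461 in knockout cells and 23385 in control cells) and KLF12 (36336 in knockout and 28331 in control). LOC124900338 completed the 12, with 10398 bases in knockout cells and 2138 in control cells. The relative background over these 12 genes ran between 1.09 and 1.663, and their median record was 253810 bases long.

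The largest deficits of covered bases in the knockout list were at COL4A2, LATS2 and STK24. COL4A2 (chr13:110307284-110513209), a chain of the type IV collagen of basement membranes, had 64757 covered bases under 15 peaks in the knockout list and 81541 bases under 14 peaks in the control list. LATS2 (chr13:20973036-21061586), the Hippo pathway kinase that restrains YAP and TAZ, had 22196 bases in knockout cells and 38476 in control cells under 7 peaks each. FOXO1 (chr13:40555667-40666641), a transcription factor held in check by insulin and AKT signalling, had 7345 bases under 7 knockout peaks and 19903 bases under 11 control peaks. IRS2, an adaptor of the insulin receptor, had 13921 bases in knockout cells and 22239 in control cells. FLT1, a receptor for vascular endothelial growth factor, had 3943 bases in knockout cells and 13623 in control cells. Of these 5, LATS2 and FOXO1 turned round when only peaks of −log10 q of at least 5 were counted.

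The other 7 genes of the 12 had mixed roles. STK24, a Ste20-family kinase, had 38219 covered bases in knockout cells and 54493 in control cells. DIAPH3, a formin that builds actin filaments, had 39826 in knockout cells and 50255 in control cells, and SPATA13, a guanine nucleotide exchange factor, had 8349 in knockout and 16913 in control. SLC7A1, a transporter of cationic amino acids, had 32029 bases in knockout cells and 41506 in control cells. These 4 genes encode signalling, cytoskeletal and transport proteins. ARGLU1 had 13645 bases in knockout cells and 24304 in control cells, the paraspeckle gene PSPC1 had 14071 in knockout and 23228 in control, and the chaperone gene HSPH1 had 9078 in knockout and 17484 in control. The relative background over the 12 deficit genes ran between 0.8848 and 1.687, and their median record was 111358 bases long. These genes were picked on covered bases, so nothing is read from their background.

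**Figure D5:**
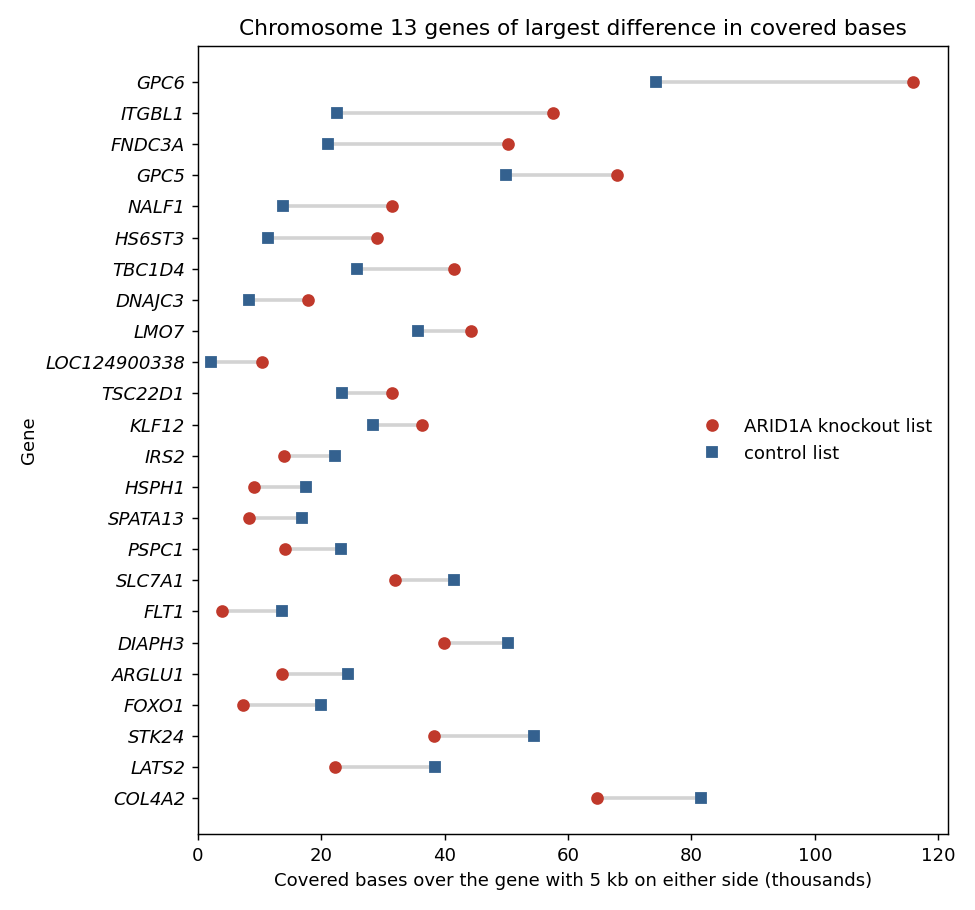
Covered bases in the knockout list and the control list for the 12 genes of largest excess and the 12 of largest deficit on chromosome 13, counted over the RefSeq record with 5000 bases on either side. The greatest excess is at GPC6 (115966 in the knockout list, 74334 in the control list) and the greatest deficit at COL4A2 (64757 in the knockout list, 81541 in the control list).

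Many of these differences did not hold when weak peaks were left out. With peaks of −log10 q of at least 5 only, all 12 excess genes kept their direction, while 5 deficit genes (LATS2, FOXO1, ARGLU1, DIAPH3 and HSPH1) turned round, 6 kept it and FLT1 had no such peak in either list. With a fold of at least 4 only, 7 excess genes kept their direction, FNDC3A, TSC22D1 and KLF12 turned round, and 2 had no such peak in either list. Of the deficit genes 5 kept it, and STK24, ARGLU1, DIAPH3, SLC7A1 and HSPH1 turned round, and 2 had no such peak. Under both cutoffs GPC6, ITGBL1, GPC5, HS6ST3, TBC1D4, DNAJC3 and LMO7 stayed higher in the knockout list and COL4A2, PSPC1, SPATA13 and IRS2 stayed lower. At COL4A2 the peaks of fold at least 4 covered 22701 bases in knockout cells and 58256 in control cells, and at GPC6 26748 in knockout cells and 16379 in control cells. At ITGBL1 they covered 13753 bases in knockout cells and 12274 in control cells, so that its difference came to 1479 bases, against 35087 over all peaks.

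The gene lists by role showed no common direction, with 26 of 93 members higher in the knockout list, 32 lower and 35 within 1000 bases, 10 of which had no peak. The shares called over all genes of the chromosome were 32.8% higher and 24.3% lower, and over all genes of the genome 20.2% higher and 30.0% lower, and no list is called different from these. Among 15 tumour suppressor and cell cycle genes 5 were higher and 8 lower, with a median difference of −1822 bases. LATS2 was the lowest of them, and ERCC5, a nuclease of nucleotide excision repair, the highest, with 5116 bases in knockout cells and 726 in control cells. RB1, the retinoblastoma gene, had 9910 bases in knockout cells and 8001 in control cells. Of 16 transcription factor genes 5 were higher and 2 lower, with a median of 0. The list of 11 glypican, collagen, matrix and cadherin genes had 4 higher and 3 lower, with a median of −354 bases. At its high end stood GPC6, ITGBL1 and GPC5, while PCDH20, a protocadherin, had 1660 bases in knockout cells and 4064 in control cells. COL4A1, which shares a promoter region with COL4A2, had 24247 bases in knockout cells and 23035 in control cells.

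Of 20 receptor, ligand and signalling genes 4 were higher and 8 lower in the knockout list, with a median of −260.5 bases. FGF14, an intracellular fibroblast growth factor homologue that binds sodium channels, had 43502 bases in knockout cells and 24560 in control cells, although part of its window overlaps that of ITGBL1. The tyrosine kinase receptor gene FLT3 had 4048 bases in knockout cells and 8292 in control cells, while PAN3, which lies between FLT3 and FLT1, had 11783 in knockout cells and 10442 in control cells. Of 14 genes of the cytoskeleton and its regulators 4 were higher and 7 lower, with a median of −728.5 bases, LMO7 and DIAPH3 being the extremes. Of 17 SLITRK, channel and transporter genes 4 were higher and 4 lower, with a median of 0. TRPC4, a cation channel, had 13036 bases in knockout cells and 5461 in control cells. SLITRK5 had 8504 in knockout and 1566 in control, although part of its window overlaps that of LOC124900338. The median over all 338 genes of the chromosome was 12 bases.

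In single bins the gene with the largest difference was often one of those given. Beyond them, WDFY2, an endosomal protein, had 49813 covered bases in knockout cells and 43364 in control cells, and KLHL1, an actin-binding protein of neurons, had 13179 in knockout and 6335 in control. SPRY2, in the bin starting at 80 Mb, had 3539 bases in knockout cells and 4734 in control cells, against the direction of its bin. That difference turned round with only peaks of −log10 q of at least 5 (to 3539) and over the gene record alone (to 824).

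The strongest peak lay at the same place in both lists. Most of the next in rank differed between the lists, though each overlapped a peak of the other list. The highest −log10 q was at RASA3, a GTPase-activating protein for Ras, with a knockout peak at chr13:114062474-114069518 (pileup 65.25, fold 7.04, −log10 q 34.91) and a control peak at chr13:114065971-114069672 (pileup 49.66, fold 8.07, −log10 q 29.98). The next knockout peaks were in COL4A2 (chr13:110441642-110449494, −log10 q 25.93), TMEM255B and ATP8A2 and 19497 bases from COL4A1. The next control peaks were at GAS6, the ligand of AXL-family receptors (chr13:113819967-113824045, −log10 q 22.7), 27709 bases from C13orf46, 18787 bases from COL4A1 and again in RASA3. The peak near COL4A1 was the other place found in both sets. All 10 of these peaks overlapped a peak of the other list. Over the whole chromosome 32.08% of knockout peaks and 25.9% of control peaks overlapped none. Of the 10, 9 lay beyond 110 Mb, the exception being the one in ATP8A2. In that last bin the median pileup was 25.5 in knockout cells and 18.7 in control cells, the highest of the 20 bins in both.

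Broad domains were cut differently in the lists, in both directions. The widest control peak ran over GTF2F2 (chr13:45185753-45227074, 41322 bases), and 4 knockout peaks overlapped it. The next, at SLC7A1, was 32526 bases wide and met 3 knockout peaks, of which the widest was 20570 bases. STARD13, a GTPase-activating protein, carried the widest knockout peak (chr13:33256150-33284517, 28368 bases), over 2 control peaks, the wider of 25396 bases. The next widest knockout peaks, 32435 bases from MYO16 (24676 bases wide) and 129900 bases from COL4A1 (22269 bases wide), also overlapped 2 control peaks each. On the whole chromosome 94 knockout peaks (3.751%) and 31 control peaks (1.301%) overlapped several peaks of the other list. On the other chromosomes these shares were 4.984% and 2.387%. At LCP1, the actin bundler L-plastin, the knockout peak was 20794 bases wide and the control peak 19373. The smallest gap left between peaks was 1445 bases in knockout cells and 1249 in control cells over the whole lists, and its part in these widths was not tested beyond the joint merging given in the closing section.

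Peaks present in 1 list only reached higher −log10 q in the knockout list. The top one lay in TRPC4 (chr13:37714796-37717198, pileup 29.9, −log10 q 11.08), 12666 bases from the nearest control peak. Others lay 74576 bases from TNFSF11, the gene of the bone-resorption cytokine RANKL (−log10 q 10.68), in ITGBL1 (9.898), in ABCC4 (9.379) and over DNAJC3, where a peak of 5795 bases reached 9.306. In the control list the top one lay 107080 bases from SUCLA2 (pileup 16.07, −log10 q 7.058), and the next 133711 bases from GPR12 (6.9), 162219 bases from LACC1 (6.641), in ATP8A2 (6.592) and in FLT3 (6.476).

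Of the 40 microRNA records on chromosome 13, 11 touched peaks of both lists, 1 a knockout peak only, none a control peak only and 28 neither. MIR2276, among the 11, had only 19 of its 89 bases under a knockout peak. Such shares were not counted on the other chromosomes, so nothing is read from these counts. The 6 records of the MIR17HG cluster, whose microRNAs are known to act as oncogenes, lay under 1 peak in each list. That peak was at chr13:91349359-91355116 in the knockout list, with 5758 bases, a pileup of 30.38, a fold of 4.161 and a −log10 q of 10.58. In the control list it was at chr13:91349796-91353711, with 3916 bases, a pileup of 18.76, a fold of 4.607 and a −log10 q of 7.973. MIR15A and MIR16-1, which share the seed shown and are known to target BCL2, lay under a knockout peak of 3614 bases (pileup 15.95, fold 2.622, −log10 q 2.712) and a control peak of 653 bases (pileup 8.42, fold 2.418, −log10 q 1.329). MIR4500 lay under a weak knockout peak at chr13:87618417-87618968 (pileup 11.24, −log10 q 1.789), 40612 bases from the nearest control peak. At MIR17HG the fold was lower in the knockout list although pileup was higher, and at MIR15A both were higher.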

How the data were processed

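H3K4me1 ChIP-seq was deposited as 1 peak list per genotype, immunoprecipitate over input. The submitters' processing notes name MACS2 2.2.6, Bowtie2 2.3.5.1 and the build hg38. Settings and the handling of replicates: not given in the sources used here. Chromatin was digested with micrococcal nuclease, per the labels' protocols, and the protocol text names an H3K4me3 antibody where titles and antibody labels say H3K4me1, which is used throughout. The authors' deposited values are, for each peak, the fold enrichment (a ratio over input), the pileup (a signal, the height of stacked fragments), the −log10 of a p-value and of a q-value, and the width in bases. Read totals were not used, so depth is unknown, and the fold and −log10 q are the authors' own. Unstated fragment lengths may differ between lists (the shortest peak was 361 bases in the knockout list and 312 in the control list), which would scale pileup and background, so both were set against the other chromosomes.

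Covered bases, overlaps (at least 1 shared base), implied background (with a pseudocount of 1, the default of MACS2) and one-to-one pairs were computed with Python 3.11.15, pandas 2.3.3, numpy 2.4.6 and scipy 1.17.1, and the code was tested on simulated data. Genes, promoters (250 bases before to 50 after a start) and microRNAs came from RefSeq tables of GRCh38.p14; the gene table gives no exons or introns, and 93 of 93 listed genes matched. Named genes were the 12 largest differences in covered bases each way (skipping overlapping windows), the largest in each 5 Mb bin and the largest each way in each list; FLT3, PAN3, RB1, COL4A1, SLITRK5, FGF9, TNFRSF19 and SLITRK6 were named in addition after their values were seen. Named peaks were the 5 of highest −log10 q, the 5 widest and the 5 of highest −log10 q without overlap in each list. The region, members and lists were chosen with earlier results of these data known. The gene just outside the lower limit of the gene call is not reported here. No p-value was computed. Alternatives were a −log10 q of at least 5, a fold of at least 4, a joint merging distance, other bins, overlaps, pseudocounts and gene windows.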

Additional observations from a re-analysis of the deposited data

How the results depend on the processing

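No paired analysis was possible because each genotype has 1 list in which its replicates are not separate, and leaving out each replicate could not be run for the same reason. Keeping peaks of −log10 q 5 or more, the ratio of peaks (knockout over control) was 1.833, of covered bases 1.77 and of median pileup 1.427; 54.32% of knockout and 15.2% of control peaks had no overlap, and 25 genes were lower in the knockout list. With a fold of at least 4 the ratio of peaks turned round to 0.9348, covered bases gave 1.038, pileup 1.666 and relative background 1.442; 45.18% of knockout and 47.83% of control peaks had no overlap, and 54 genes were higher. With both lists merged over the same gap the ratio of peaks was 1.125 and of covered bases 1.128. Requiring 50% overlap, 44.89% of knockout and 35.31% of control peaks had none. A pseudocount of 0 gave a relative background of 1.319, and leaving out peaks near the lowest background 1.345. In 10 Mb bins 8 were more covered in the knockout list, and in 1 Mb bins 71. Shares over all bins of these sizes were not computed, so neither count can be set beside that of the 5 Mb bins. The 1 Mb bins, the one-to-one pairs and leaving out peaks near the lowest background were chosen after seeing the data.

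Differences in covered bases (knockout minus control) that turned round at a −log10 q of at least 5 were LATS2 1252, HSPH1 6859, FOXO1 424, DIAPH3 11143, SPRY2 3539 and ARGLU1 5835. At a fold of at least 4 they were SLC7A1 16047, HSPH1 146, TSC22D1 −1504, FNDC3A −2243, DIAPH3 6348, KLF12 −3076, STK24 838, FGF14 −1868 and ARGLU1 2643. Over the gene record alone they were PCDH20 1628 and SPRY2 824. The cause was not tested. Peaks near the calling threshold are the least certain, and the depth behind either list is unknown.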
